A study of Betula luminifera with 4 samples.

Results

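Phosphate deficiency in birch shoots was described here from the microRNAs (miRNAs) of 1 shoot library of phosphate-deficient plants (LP) set against 1 shoot library of control plants (CK). Betula luminifera is a birch tree of which the clone G49# was raised in tissue culture and then grown in sand. The plants received full medium for 2 weeks and deionized water for another 2 weeks, and then either medium with 1.25 mM KH2PO4 (CK) or medium without KH2PO4, its only phosphate source (LP). Potassium was balanced in LP by adding K2SO4, so LP plants lacked phosphate and also received more sulfate, and the effects of these cannot be told apart. A shoot library holds RNA of stems and leaves mixed in equal amounts. The plants are 1 clone, and the 54 that were used formed 2 equal groups in 3 blocks, but the labels do not say which plants or blocks entered a library. These are 2 of the 4 libraries of the series, the others being roots under the same treatments. All named rows of the deposited table were taken and rows with the same mature sequence were counted once, which gave 215 distinct sequences of 215 in the series, 156 with a known miRNA name in 56 families and 59 predicted in birch (names starting with blu). The tissue is as labelled, since small RNA data hold no marker genes to check it by.

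A plant miRNA is cut by a Dicer-like enzyme from a folded precursor, and the guide strand of the resulting duplex is loaded into an Argonaute protein, which then finds and silences messenger RNAs with a nearly complementary site. In plants in general, phosphate shortage is known to raise miR399, which silences the ubiquitin-conjugating enzyme PHO2 and so releases phosphate transporters, together with miR827 and miR2111. The copper-responsive families miR397, miR398 and miR408 silence copper-containing proteins, miR395 silences sulfate-assimilation genes, and families such as miR156, miR159, miR166, miR172 and miR319 silence transcription factors that shape leaves, stems and growth phases. Targets are given here as this background only; target sites in birch were not searched.

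The mature sequences on which the shoot comparison turns are printed 5′ to 3′ as deposited, in DNA letters, with the seed, bases 2 to 8, in capitals. The first set holds sequences of the copper-responsive, silencing and auxin-related families that are higher in shoot LP. Of these, miR398b is the sparse member of its family. miR167a, within 2-fold, stands beside miR167b because they differ only at the 3′ end.
miR397a: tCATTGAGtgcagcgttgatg
miR398b: tTGTGTTCtcaggtcacccct
miR408a: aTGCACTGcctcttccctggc
miR1515: tCATTTTTgcgtgcaatgatcc
miR403a: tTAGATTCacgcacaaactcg
miR167b: tGAAGCTGccagcatgatctga
miR167a: tGAAGCTGccagcatgatctt
The second set holds sequences of miR858, miR319, miR394, miR172, miR159 and miR169 that are lower in shoot LP. Over both libraries the most abundant sequence of miR172 is miR172d, and that of miR169 is miR169c, which is within 2-fold.
miR858: tTCGTTGTctgttcgaccttg
miR319a: tTGGACTGaagggagctccc
miR394a: tTGGCATTctgtccacctcc
miR172a: gGAATCTTgatgatgctgcag
miR159a: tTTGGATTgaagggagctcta
miR169a: tAGCCAAGaatgacttgcc
The last set serves the phosphate and sulfate results and a comparison of short and long forms, in which the shorter sequence is a stretch of the longer.
miR399b: cGCCAAAGgagagttgccctt
miR399a: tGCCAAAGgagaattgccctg
miR395a: tGAAGTGTttgggggaact
miR395b: cTGAAGTGtttgggggaactc
miR156g: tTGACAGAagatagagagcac
miR156i: tTGACAGAagatagagagcacca
miR7122b: tTATTCAGagaaatcacggt
miR7122a: tTATTCAGagaaatcacggttg

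In the CK library the distinct sequences add up to 1015833 reads and in the LP library to 723599, which are totals of the deposited table and not of the whole libraries. Levels below are the authors' normalized values, with 1 added before a log2 ratio (LP over CK) was formed and nothing added for a fold. The bracket after a fold is a 95% exact interval from the read counts, and it covers counting error only, because PCR reads are not independent molecules. With 1 library a side no difference has a replicate check or a test, so "higher" and "lower" mean at least 2-fold apart with a value of at least 10 in 1 shoot library. More or less of a stem or leaf cell type and more or less miRNA per cell cannot be told apart in such pooled RNA. By this rule 140 sequences were measured, of which 25 (17.9%) were higher and 39 (27.9%) lower in shoot LP, 76 lay within 2-fold, and the median log2 ratio was -0.23. The interval excluded equality for all 25 of the higher and for 38 of the lower sequences. Of the 140, 13 passed the minimum in LP alone, among them 10 of the higher, and 10 in CK alone, among them 8 of the lower, and for these the minimum itself favours the direction. Other scalings multiply all plain ratios by 1 factor, which on the log2 scale is -0.11 for the table total, 0.14 for the median of ratios and 0.24 for the trimmed mean of M values (TMM). Low values, to which 1 is added, move by less. Under TMM the split turned to 42 higher and 28 lower, and 22 of the higher and 28 of the lower sequences stayed so under every scaling. Of 42 measured families, summed over their members, 9 (21.4%) were higher and 15 (35.7%) lower, with a median log2 ratio of -0.63. Among these the higher miR1511 and miR2199 passed the minimum in LP alone and the lower miR479 in CK alone.

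The ranking of the abundant sequences was partly rearranged between the libraries. miR482b led both, with 20.3% of the reads in CK and 27.2% in LP. The miR166a sequence came next in CK with 18.1% and was ranked 4 in LP with 10.7%. The predicted blu-miR7-3p held 15.4% and 16.9%. These 3 sequences alone took 53.9% of the reads in CK. miR159a went from 11.4% to 4.67%, whereas miR156g went from 6.56% to 11.6%. The steepest descent among the leading 10 of CK was that of miR319a, from rank 9 to rank 21, and the steepest climb into the leading 10 of LP was that of miR6300, from rank 22 to rank 10, with miR167b moving from rank 12 to rank 9. Besides miR319a only miR171a left the leading 10, going from rank 10 to rank 13, and 8 sequences were in the leading 10 of both libraries.

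**Figure D1:**
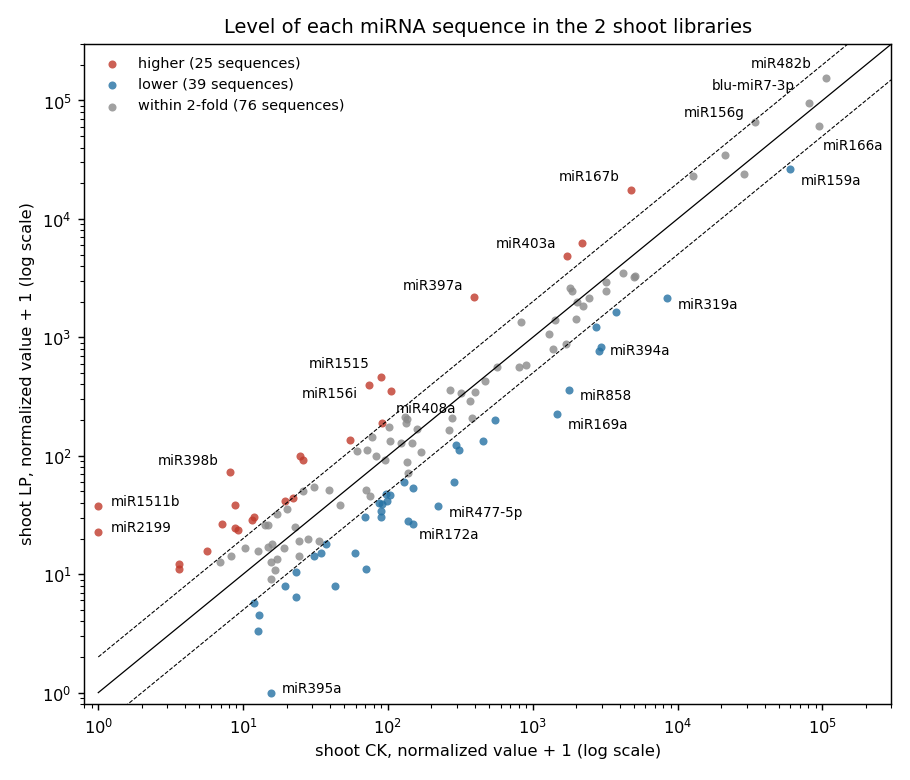
Each point is 1 of the 140 measured sequences, with its normalized value plus 1 in shoot CK on the x axis and in shoot LP on the y axis, both on log scales. The solid line marks equal values and the dashed lines 2-fold, with 25 sequences higher (red), 39 lower (blue) and 76 within 2-fold (grey); miR1511b and miR2199 sit on the left edge at 0 in CK, and miR395a on the lower edge at 0 in LP.

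All 3 measured copper-responsive families were higher in shoot LP, beside 21.4% of all measured families. Of their 7 measured sequences 6 were higher, beside 17.9% of all measured sequences. Of those 6 sequences 3 passed the minimum in LP alone, while the families passed it in both libraries. The list's median log2 ratio was 1.75 against -0.63 over all measured families. miR397, known to silence laccases, the copper enzymes that polymerize lignin, was 5.44-fold (5.03 to 5.87) higher as a family, and each of its 4 members was higher on its own. miR397a stood at 391 in CK and 2181 in LP, from 756 and 2796 reads. The less abundant miR397b, miR397c and miR397d had 12 and 33 reads, 48.5 and 117 reads and 15 and 48 reads, and log2 ratios of 1.89, 1.82 and 2.14. The members miR397a, miR397b and miR397c share the seed CATTGAG and differ at the last base, and together stood at 422 in CK and 2298 in LP. Because such reads can be split between near-identical members, the family sum is surer than each member.

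miR408a, the only listed member of a family that silences plantacyanin and laccase genes, stood at 104 in CK and 350.0 in LP, from 200.3 and 449 reads, and was 3.38-fold (2.86 to 4.02) higher. miR398, which silences copper/zinc superoxide dismutases, was made of unlike members. Its abundant miR398a stood at 129 in CK and 212 in LP, a ratio of 1.64 (1.37 to 1.95) that is within 2-fold. Its sparse miR398b stood at 7.10 in CK and 71.8 in LP, from 13.8 and 92 reads, and was 10.1-fold (5.62 to 18.9) higher. The family sum of 144 in CK and 289.7 in LP lay at the 2-fold line and fell under it when scaled to the table total (log2 ratio 0.90). miR857, the fourth family of that list, was not analysed here.

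Of the 4 families in the phosphate-starvation list only miR399 was measured in these shoots, and it did not reach 2-fold. miR399 as a family stood at 971 in CK and 727 in LP, a log2 ratio of -0.42 that lay between -0.52 and -0.18 over the scalings. Its abundant miR399b stood at 807 in CK and 557 in LP, a ratio of 0.689 (0.630 to 0.754). Its second member, miR399a, stood at 157 in CK and 166 in LP, a ratio of 1.06 (0.884 to 1.26) whose interval includes equality. Neither member was 2-fold apart. miR2111, which in other plants moves from shoot to root and silences an F-box gene, was under the minimum of 10, at 6.20 in CK and 9.36 in LP. miR827 and miR778 were not analysed here.

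Of the sulfate and nitrogen list, miR395, which silences ATP sulfurylase and a sulfate transporter, was lower and miR169, which silences NF-Y transcription factors, was within 2-fold. The extra sulfate of the LP medium stands beside the miR395 value and its part was not tested. The 21-nt miR395b stood at 102 in CK and 45.6 in LP, from 197 and 58.5 reads, and was 2.23-fold (1.67 to 3.07) lower. The 19-nt miR395a had 28 reads in CK and was listed at 0 in LP, and no fold is given for it. As a sum the family was 2.64-fold (1.99 to 3.61) lower, and it stayed past 2-fold under every scaling. The miR169 members differed widely, since the 19-nt miR169a stood at 1479 in CK and 222 in LP and was 6.65-fold (5.89 to 7.54) lower, while the 23-nt miR169c stood at 1422 in CK and 1406 in LP, a ratio of 0.988. Between them lay the 20-nt miR169b, 2.30-fold (1.59 to 3.39) lower, and the opposite strand miR169a-3p, 4.16-fold (2.52 to 7.27) lower. Of the list's 6 measured sequences 5 were lower, beside 27.9% over all measured sequences. Of those 5, miR395a passed the minimum in CK alone, and miR169a and miR169a-3p are strands of 1 precursor. The list's sequence median was -1.58, beside -0.23 over all measured sequences.

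The 4 auxin-signalling families split. miR167, which silences auxin response factors, was the only one higher, and it was so through 1 member. The 22-nt miR167b stood at 4741 in CK and 17398 in LP, from 9176 and 22300 reads, and was 3.67-fold (3.58 to 3.76) higher. The 21-nt miR167a, which has the same first 20 bases, stood at 3199.8 in CK and 2462 in LP, a ratio of 0.769 (0.737 to 0.803) within 2-fold. In CK the level of miR167b was 1.48 times that of miR167a, and in LP 7.07 times. The lesser miR167c and miR167d-3p had log2 ratios of 0.52 and 0.77.

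miR160, which silences another group of auxin response factors, had a family log2 ratio of -0.92, which became -1.02 when scaled to the table total. Its main sequence miR160a stood at 2753 in CK and 1229.5 in LP and was 2.24-fold (2.12 to 2.37) lower, a call that TMM scaling ended. miR390a, which starts the production of trans-acting small RNAs against auxin response factors, stood at 3743 in CK and 1642 in LP, 2.28-fold (2.17 to 2.39) lower, and this too was under 2-fold with TMM scaling. miR393, which silences the auxin receptors, had a log2 ratio of -0.15, and its sign changed with the scaling, from -0.25 to 0.09. Its member miR393a (-0.82) had the lower ratio and the abundant 22-nt miR393b, miR393c sequence a ratio of 0.05.

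Among the development families 4 of 9 were lower and none reached 2-fold higher in the deposited scaling, beside 35.7% lower and 21.4% higher over all measured families. The list's median log2 ratio was -0.66, near the -0.63 over all of them. By sequence, 18 of 46 were lower, 5 higher and 23 within 2-fold, beside 27.9% lower and 17.9% higher over all measured sequences. miR319, which silences TCP transcription factors that limit leaf growth, was 3.99-fold (3.84 to 4.15) lower. It rested on miR319a, which stood at 8469 in CK and 2128 in LP, from 16392 and 2728 reads. The related miR159, which silences GAMYB factors, was 2.31-fold (2.28 to 2.34) lower, with miR159a at 59778 in CK and 26369.5 in LP, and the call was lost under TMM (log2 ratio -0.97). The miR159a-5p strand stood at 2939.9 in CK and 834 in LP, 3.53-fold (3.30 to 3.77) lower, and miR159c at 148 in CK and 25.7 in LP, 5.74-fold (3.99 to 8.50) lower. The miR159c sequence carries the miR159 name but not the seed of miR159a, having AGCTGCC in place of TTGGATT. The GAMYB target is therefore not given for it.

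miR172 and miR156, which mark the adult and the juvenile phase of a shoot and silence AP2-type and SPL factors, had ratios of opposite sign. The 3 measured miR172 members were all lower, with miR172d at 309 in CK and 110.0 in LP, miR172a at 137 in CK and 26.9 in LP and miR172f at 90.8 in CK and 38.1 in LP. In that order they were 2.81-fold (2.33 to 3.40) lower, 5.09-fold (3.60 to 7.61) lower and 2.38-fold (1.72 to 3.34) lower. miR156 as a family stood at 40005 in CK and 71499 in LP, a log2 ratio of 0.84 that passed 2-fold only with TMM scaling (1.07). Its main sequence miR156g stood at 34456 in CK and 65509.6 in LP, a ratio of 1.90 (1.88 to 1.92) within 2-fold. Of its 11 measured sequences 4 were higher, beside 17.9% over all measured sequences, and 7 were within 2-fold. The higher ones were led by the 23-nt miR156i at 72.6 in CK and 393 in LP, 5.42-fold (4.50 to 6.60) higher. Those within 2-fold included the 20-nt miR156a/b/c with a log2 ratio of -0.28 and miR156l with 0.86. The other higher sequences, miR156k, miR156f,miR156h and miR156b-3p, had 15 and 30 reads, 20.5 and 35.5 reads and 41 and 55 reads. Of these, miR156k passed the minimum in LP alone, and miR156b-3p was within 2-fold when scaled to the table total (log2 ratio 0.88).

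miR394, known to silence an F-box gene that acts in the shoot meristem, was lower in all of its 3 measured sequences. miR394a stood at 2858 in CK and 761 in LP and was 3.76-fold (3.51 to 4.03) lower, and miR394b, which carries 1 base more at the 5′ end, stood at 148 in CK and 52.7 in LP and was 2.81-fold (2.13 to 3.68) lower. The remaining families of the list lay within 2-fold. miR164, which silences NAC factors, had a log2 ratio of -0.66, and miR166, which silences HD-ZIP III factors, -0.64. For miR171, which silences GRAS factors, it was -0.47, though miR171g stood at 546 in CK and 199 in LP and was 2.75-fold (2.39 to 3.16) lower. miR396, which silences growth-regulating factors, had a log2 ratio of -0.25, and its main sequence miR396a stood at 28842 in CK and 24144 in LP, while the 22-nt miR396b had a log2 ratio of 0.91. Against that, the strand miR396d-3p stood at 23.8 in CK and 99.1 in LP, from 46 and 127 reads, and was 4.17-fold (2.95 to 5.98) higher. miR157 and miR165 were not analysed here.

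Among families that silence the silencing machinery itself, 2 of 4 were higher and 2 within 2-fold, beside 21.4% higher over all measured families. miR403a, whose known target is an Argonaute of the AGO2 type, stood at 1735 in CK and 4902 in LP, 2.83-fold (2.71 to 2.95) higher. miR1515, which in soybean targets a Dicer-like gene, stood at 88.4 in CK and 463 in LP, from 171 and 593 reads, and was 5.24-fold (4.41 to 6.24) higher. These stayed past 2-fold under every scaling. miR168, which silences AGO1, had a log2 ratio of -0.78, with miR168a at 1698 in CK and 878 in LP. miR162, which silences a Dicer-like gene, had a log2 ratio of -0.30, with miR162a at 2214 in CK and 1849 in LP.

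In the immune-receptor and MYB list 2 of 3 measured families, the MYB-directed ones, were lower, beside 35.7% over all measured families. miR858, which silences MYB factors of phenylpropanoid metabolism, stood at 1777 in CK and 361 in LP, from 3440 and 463 reads, and was 4.92-fold (4.46 to 5.43) lower, the most of any measured family in the lower direction. miR828, which also silences MYB genes, stood at 45.5 in CK and 18.7 in LP as a family, 2.43-fold (1.53 to 3.99) lower, from 88 and 24 reads. Its more abundant miR828a was within 2-fold (log2 ratio -0.77). Its other member, miR828b, was lower (-1.85) and passed the minimum in CK alone, which itself favours that direction. miR482, which silences immune receptor genes, was within 2-fold, with a family log2 ratio of 0.58. Its 3 abundant members had log2 ratios of 0.53 for miR482b, 0.68 for miR482a and 0.84 for miR482c, while the sparser miR482g stood at 261 in CK and 165 in LP with -0.66.

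Families whose names have been given elsewhere to sequences that resemble pieces of tRNA were kept apart. miR6300 stood at 2191 in CK and 6299.8 in LP and was 2.88-fold (2.77 to 2.99) higher, and it is the only sequence of 26 nt in the table. The others were not higher, with log2 ratios of -0.17 for miR6478, -0.63 for miR894, -0.93 for miR5072 and -1.0 for miR8175. The miR8175 sum stood at 53.2 in CK and 26.1 in LP and was past 2-fold in the deposited scaling but not under TMM. Its most abundant miR8175a was within 2-fold (-0.37), and its 2 lower sequences passed the minimum in CK alone. The ratio of miR6478 changed sign with the scaling, from -0.28 to 0.06. Leaving these families out of the total moved the log2 of a plain ratio by -0.10.

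Of 11 measured families in no list, 2 were higher and 6 lower, beside 21.4% and 35.7% over all measured families. The higher ones were miR1511 and miR2199, both from under 50 reads in each library, and miR2199 was listed at 0 in CK and had 28 reads in LP. Both passed the minimum in LP alone, and of the lower ones miR479 passed it in CK alone. For these the minimum itself favours the direction. miR2950 was the most clearly lower, with miR2950a at 451 in CK and 133 in LP, 3.38-fold (2.86 to 4.0) lower. miR477 followed at 515 in CK and 159.9 in LP, 3.22-fold (2.77 to 3.76) lower. miR536 was 2.44-fold (1.77 to 3.36) lower, miR5083 2.39-fold (1.40 to 4.28) lower and miR530 2.38-fold (1.44 to 4.13) lower, from values under 100 in CK. For miR479 the ratio of 2.32 had an interval of 0.905 to 7.02, so that a difference was not detectable at 21 and 6 reads. The 3 families within 2-fold were miR7122 (0.44), miR3627 (0.35) and miR6173 (-0.44).

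**Figure D2:**
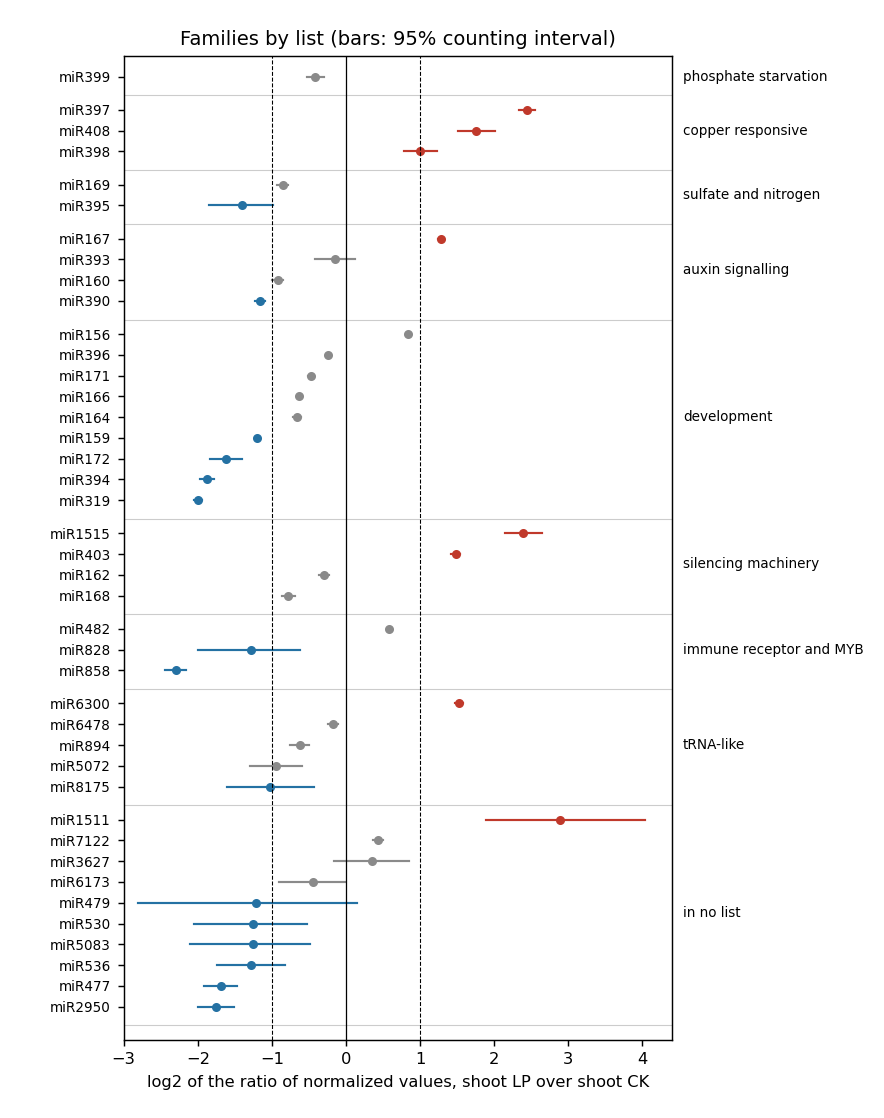
Each point is the log2 ratio of a family's normalized values, shoot LP over shoot CK, with its 95% counting interval, and families are grouped by list; miR2199 is left out because it is 0 in CK. Dashed lines mark 2-fold, with higher families in red and lower ones in blue. The 3 copper-responsive families lie at or right of the 2-fold line, and miR399 lies left of 0 and within it.

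Members of 1 family often had unlike ratios. Of 26 families with at least 2 measured members, 8 held members at least 2 log2 units apart, namely miR156, miR167, miR169, miR319, miR395, miR396, miR398 and miR7122, and in none were members 2-fold apart in both directions. Within miR319 the range ran from -2.67 for miR319a-5p to 0.18 for the 24-nt miR319e, and within miR7122 from -1.55 for the 20-nt miR7122b to 0.51 for the 22-nt miR7122a. In several of these families the member with the higher ratio was the longer one.

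This was examined in pairs where the shorter sequence is a stretch of the longer, so that they differ by end bases alone. The pattern had already been seen in these data, so the pairs describe it and are no separate check of it. Of such pairs 9, from 8 families, had both sequences measured in shoots, and the longer had the higher LP ratio in all 9. The difference between them had a median of 1.23 log2 units, from 0.43 to 2.17 in the pairs other than miR395, whose shorter form is listed at 0 in LP and whose difference was 2.81, and the intervals of both folds were apart in 6 pairs. In 6 of the 9 pairs both sequences were at 10 or more in both libraries, and in these too the longer had the higher ratio in 6 of 6 (median 1.33); that restriction was chosen after the data were seen. A common scaling factor cancels in a difference of plain log2 ratios, and with 10 added to each value the longer was still higher in 9 pairs, at a median of 0.96. miR156g (0.93) and miR156i (2.42) differ by 2 bases at the 3′ end. miR7122b stood at 88.9 in CK and 29.6 in LP, whereas miR7122a, with 2 further bases at the 3′ end, stood at 1818 in CK and 2587 in LP. miR169b and miR169c differ by 3 bases at the 3′ end and had -1.18 and -0.02. The extra base is at the 5′ end in miR166a against miR166b (-0.66 and -1.40) and in miR394b against miR394a (-1.47 and -1.91). The pairs share 2 libraries and 1 table, and 2 of them share miR319a, so they are not independent. For 6 of the pairs both sequences were also measured in roots, where the longer had the lower ratio in 4 of 6 (median difference -1.22), beside 6 of 6 higher in shoots (median 1.33).

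The miR7122a precursor shows how such a pair sits on 1 hairpin. It lies at positions 27 to 164 of the plus strand of transcript TRINITY_DN25244_c1_g1 in the authors' assembly, and capitals mark the mature sequences, of which miR7122b is the first without its last 2 bases.
miR7122a precursor: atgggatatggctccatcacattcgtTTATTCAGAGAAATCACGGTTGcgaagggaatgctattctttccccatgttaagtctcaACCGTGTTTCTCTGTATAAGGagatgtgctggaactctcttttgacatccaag

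**Figure D3:**
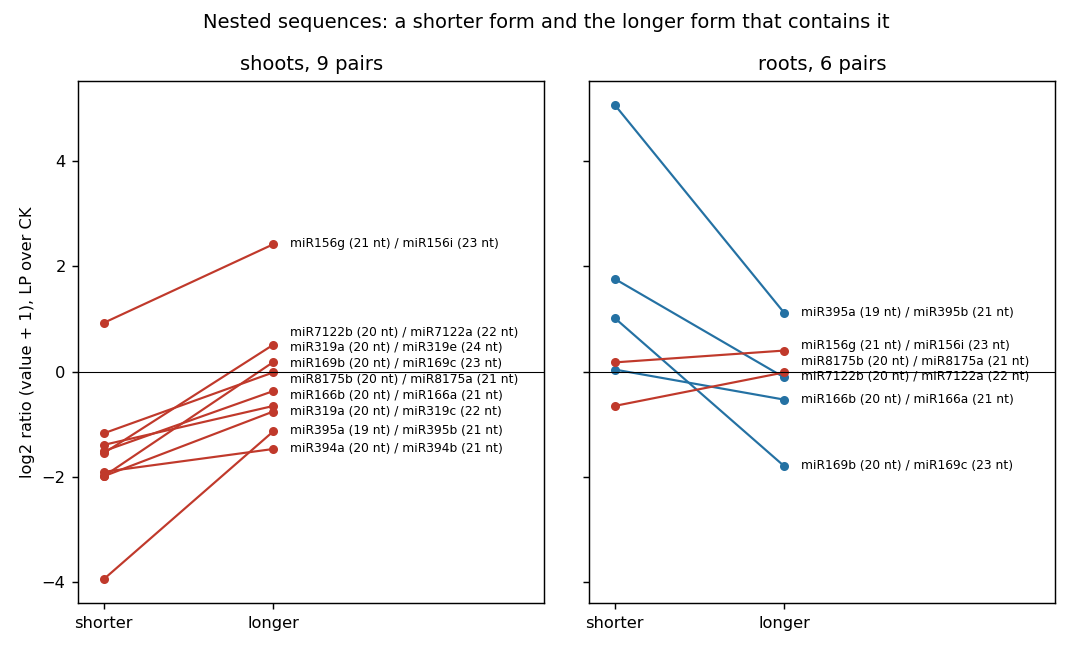
Lines join the log2 ratios (LP over CK) of a shorter sequence and of the longer sequence that contains it, for 9 pairs in shoots and 6 in roots. Red lines climb to the longer form and blue lines descend; all 9 shoot pairs climb, while 4 of the 6 root pairs descend.

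Strands paired by 1 precursor, or by the same name apart from its arm ending as for miR477, mostly had similar ratios. Of 38 pairs of a more abundant strand and its partner, 28 had both measured, 22 of these had ratios of the same sign, and 22 were within 2-fold of each other. The counting intervals of both folds were apart in 16 of the 28 pairs. Some sequences, such as miR156a/b/c, miR167a-3p, miR7122a and miR7122b, are in more than 1 pair, so the pairs are not independent. The gap reached 2-fold in 6 pairs, of miR156, miR160, miR167, miR477 and miR7122. For miR160a the guide strand stood at 2753 in CK and 1229.5 in LP while miR160a-3p stood at 269 in CK and 357 in LP, so the partner went from 9.78 to 29.0 per 100 guide strands. For miR156a/b/c the partner on the 3′ side, miR156a-3p and miR156c-3p, went from 64.2 to 126 per 100, and miR156b-3p went from 1.65 to 4.06 per 100. For miR477 the other strand had the lower ratio, with miR477-3p at 296 in CK and 123 in LP and miR477-5p at 219 in CK and 36.7 in LP, or 74.1 and 29.7 per 100. miR167a-3p stood at 316 in CK and 341 in LP and went from 6.67 to 1.96 per 100 miR167b, whereas against miR167a it went from 9.88 to 13.8.

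Precursors of miR160a, of miR156a/b/c with its 3′ partner, of miR167a with miR167a-3p, and of a pair in which both strands were lower, are printed with the mature sequences in capitals. Of these pairs that of miR160a had a gap of 2-fold or more. That of miR160a lies at positions 93 to 183 of TRINITY_DN27612_c0_g1, that of miR156a/b/c at 295 to 393 of TRINITY_DN25480_c1_g3 and that of miR167a at 63 to 151 of TRINITY_DN45989_c0_g1, all on the plus strand.
miR160a precursor: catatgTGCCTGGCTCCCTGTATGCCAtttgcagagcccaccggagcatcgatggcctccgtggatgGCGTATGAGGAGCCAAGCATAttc
miR156a/b/c precursor: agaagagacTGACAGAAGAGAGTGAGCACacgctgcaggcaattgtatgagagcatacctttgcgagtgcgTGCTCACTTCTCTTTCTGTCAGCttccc
miR167a precursor: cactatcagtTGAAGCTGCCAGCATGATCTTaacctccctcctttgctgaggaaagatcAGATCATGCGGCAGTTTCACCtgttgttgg
The fourth, at positions 106 to 190 of the plus strand of TRINITY_DN24666_c1_g4, gives miR319b-5p from its 5′ arm and miR159c from its 3′ arm, which stood at 285 in CK and 58.5 in LP and at 148 in CK and 25.7 in LP, with log2 ratios of -2.26 and -2.48.
miR319b-5p and miR159c precursor: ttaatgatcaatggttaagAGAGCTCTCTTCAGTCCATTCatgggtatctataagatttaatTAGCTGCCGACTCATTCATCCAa
Not every deposited assignment is exact. Of 147 rows placed on a transcript, 81 have their mature sequence letter for letter in the precursor and the other 66, miR167b and miR169a among them, differ from it by 1 base.

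**Figure D4:**
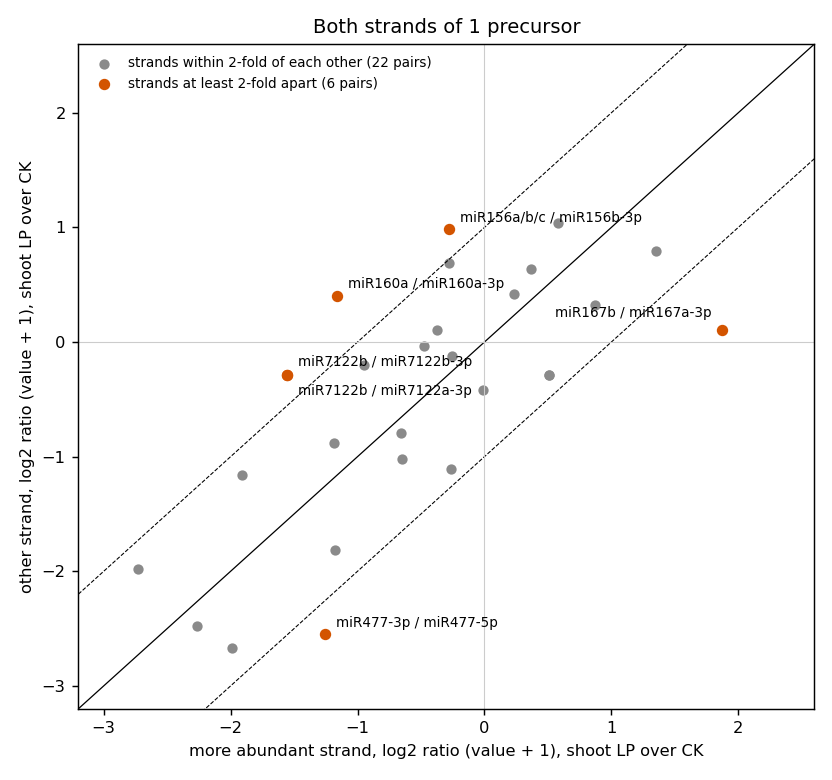
Each point is 1 pair of strands from the same precursor or with the same name apart from its arm ending, and some sequences are in more than 1 pair. The log2 ratio (shoot LP over shoot CK) of the more abundant strand is on the x axis and that of its partner on the y axis. The solid line marks equal ratios and the dashed lines a 2-fold gap; 22 pairs lie between the dashed lines and 6 (orange) outside them.

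The length makeup of the reads moved from 20 and 21 nt toward 22 nt. Sequences of 21 nt held 67.6% of the reads in CK and 56.0% in LP, those of 20 nt 2.58% and 0.784%, and those of 22 nt 28.3% and 41.2%. miR482 makes up most of the 22-nt reads. Without miR482 in the total the 22-nt share was 1.94% in CK and 6.0% in LP, in which miR167b was the leading sequence, and that of 21 nt 92.5% and 89.5%. By sequence, the median log2 ratio was -2.35 for the 4 measured sequences of 19 nt, -1.19 for the 14 of 20 nt, -0.31 for the 78 of 21 nt, 0.38 for the 19 of 22 nt and 0.89 for the 18 of 24 nt. The minimum bears on the rare lengths, since 2 of the 4 sequences of 19 nt passed it in CK alone and 5 of the 18 of 24 nt in LP alone. The 2 of 19 nt that passed in both libraries are strands of 1 precursor, miR169a and miR169a-3p. The 13 of 24 nt that passed in both had ratios above 0, beside 47 of all 117 sequences that did. Some of the 13 are partner strands of 1 precursor, as for blu-miR8 and blu-miR13, so they are not independent. The restriction to sequences that passed in both libraries, too, was chosen after the data were seen.

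Nearly all of the 24-nt sequences were predicted in birch and sparse. Of 17 measured predicted sequences of 24 nt 7 were higher and none lower, beside 17.9% and 27.9% over all measured sequences. As 5 of the 17 passed the minimum in LP alone, 3 of the 7 among them, the count is a description only. The 17 had log2 ratios from 0.33 to 1.78 and together stood at 596 in CK and 1065 in LP. The 24-nt class is in plants mostly that of small RNAs that direct DNA methylation, and the predicted names were not checked against that class. Of those that reached 100, blu-miR11-3p stood at 53.7 in CK and 134 in LP, 2.49-fold (1.95 to 3.22) higher, and blu-miR13-3p at 90.4 in CK and 187 in LP, 2.07-fold (1.70 to 2.53) higher. The 10 measured predicted sequences of 21 nt had a median of 0.11, with 1 higher and 1 lower, and the abundant blu-miR7-3p stood at 80894 in CK and 95266 in LP and blu-miR6-5p at 1977 in CK and 1423 in LP.

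**Figure D5:**
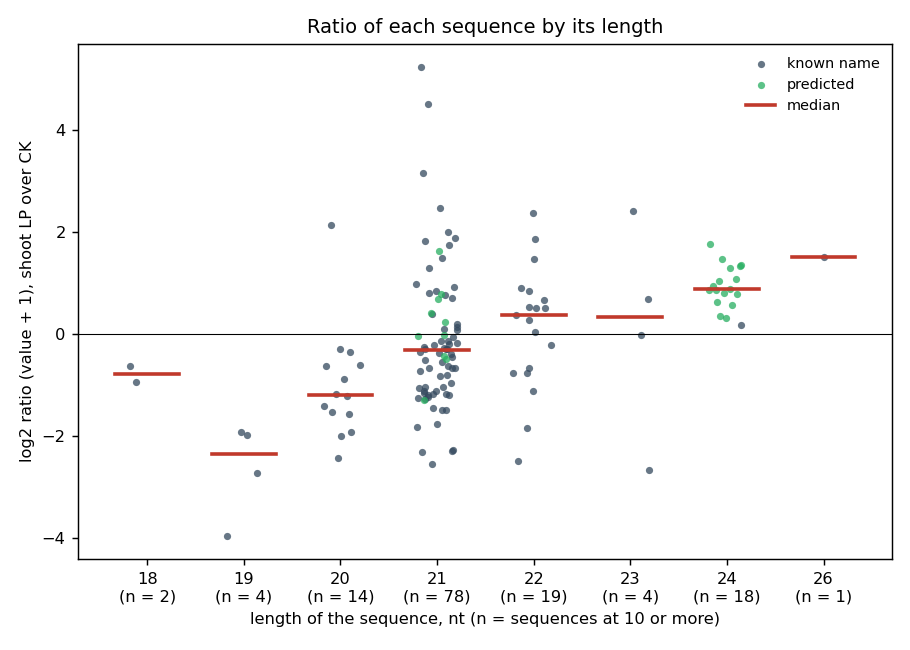
Log2 ratio (shoot LP over shoot CK) of each measured sequence by its length in nucleotides, with known names in dark grey, predicted ones in green and the median of each length as a red line. The medians lie below 0 up to 21 nt and above 0 from 22 nt, with -2.35 at 19 nt, 0.89 at 24 nt and 1.52 for the 1 sequence of 26 nt.

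Sequences that share a seed mostly belonged to 1 family. The 6 sequences with the miR156 seed TGACAGA together stood at 34644 in CK and 66110 in LP, and the 4 with the miR160 seed GCCTGGC at 2859 and 1297. For GAAGCTG, the seed of miR167a and miR167b, the sums were 7941 and 19860. The seed TCGTTGT was shared by miR858 and miR6300, whose ratios were on opposite sides of 2-fold, at -2.30 and 1.52. A shared seed is given here as letters only and not as a shared target.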

How the data were processed

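Small RNA was sequenced as 36-nt single reads with a TruSeq kit from 1 µg of total RNA, per the protocols in the labels. The raw columns hold estimated counts as deposited by the authors, and 70 sequences have a fractional value in a shoot library. The norm columns are a signal, named so per the file headers, and equal the raw column times 1 constant of the authors, 0.517 for shoot CK and 0.780 for shoot LP. Not given in the sources used here are the choice of constants, the aligner, the counting program and the filters. The table has 221 rows, 6 of them repeats of a sequence, which were collapsed; 2 blank lines were not analysed here.

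Distinct sequences whose names carry the same number after miR were summed into a family. Ratios used normalized values plus 1. Fold intervals are exact conditional (Clopper-Pearson, 95%) intervals from raw reads rounded to whole numbers. Their coverage was checked on simulated independent Poisson counts only. That is the model the intervals assume, so the check says nothing about PCR reads or split counts. Table totals were 1015833 reads (CK) and 723599 (LP). The comparison is shoot LP against shoot CK, with 1 library a side and no test. Alternatives were the table total (with and without tRNA-like families), TMM from edgeR 4.0.16, the median of ratios from DESeq2 1.42.0, other minimum values, 10 added in place of 1, the most abundant sequence in place of the family sum, and rows as deposited. R 4.3.3, Python 3.11.15, pandas 2.3.3, SciPy 1.17.1 and matplotlib 3.10.9 were used.

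The lists and members were chosen with earlier results of these data known. The 8 lists of families are the ones the report is ordered by; their members miR826, miR472, miR1507, miR2109, miR2118 and miR5300 were not analysed here. The text names list families that reach 10 in either shoot library, the 15 sequences with the largest ratio in each direction among those at 100 or more, the 10 most abundant sequences of each library, members of families at least 2 log2 units apart, strand pairs with 1 strand at 100 or more, predicted sequences at least 2-fold apart at 100 or more, and families in no list at least 2-fold apart. From the larger of these groups the text gives examples and counts, and nested pairs were added after values were seen.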

Additional observations from a re-analysis of the deposited data

Results flagged for a closer look

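In 2 families the ratio of LP to CK was past 2-fold in opposite directions in shoots and roots with counting intervals that excluded equality in both tissues, from different control libraries and with 1 library in each group, and the difference between the tissues was not tested. miR395 had a log2 ratio of -1.38 in shoots and 1.72 in roots, where it stood at 18.4 in CK and 62.8 in LP from 18 and 23 reads. miR858 had -2.30 in shoots and 1.59 in roots, where it stood at 72.5 in CK and 221 in LP from 71 and 81 reads. miR828, lower in shoots at -1.24, had 1.09 in roots from 7 and 6 reads, where the interval of the ratio, 0.636 to 7.96, included equality.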

How the results depend on the processing

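No paired analysis was possible because each treatment has 1 shoot library. For the same reason no library could be left out. The count of 25 higher sequences went to 42 with TMM scaling and to 42 with no minimum value, and to 9 with a minimum of 100 and 15 with 10 added to each value. The count of 39 lower sequences went to 62 with no minimum and 19 with a minimum of 100, and the 15 lower families went to 9 with a minimum of 100. All other counts under the other scalings, filters and added values stayed within 1.5 times, among them 22 and 41 sequences for the table total, 37 and 35 for the median of ratios, and every count of higher families. Scaling ended the 2-fold call of miR159, miR390, miR398, miR479 and miR8175 and of no other of the 24 called families. None of the families and sequences followed that were past 2-fold turned its direction under any setting tried. For most settings this was fixed in advance, because scaling shifts a log2 ratio by at most 0.24. A minimum or an added value keeps its sign. A family could have turned only with its most abundant sequence alone or with rows as deposited. Among the 39 families followed, 251 values moved by less than their counting interval and 100 by more, and among 37 sequences 226 and 70. The unmoved values include those with no minimum and with a minimum of 100, which cannot change a ratio. For the sequences they also include rows as deposited. These tallies are therefore no measure of how robust the ratios are. Depth limits families under about 50 reads, and a listed 0 can hide a few reads.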

Other observations

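miR1511b and miR2199 were listed at 0 or a few reads under CK in each tissue and stood higher under LP. In shoots miR1511b had 0 reads in CK and 47 in LP and miR2199 had 0 and 28. In roots miR1511b had 2 reads in CK and 43 in LP, and miR2199 had 3 and 31. Normalized, miR1511b stood at 36.7 in shoot LP and 117 in root LP, and miR2199 at 21.8 and 84.6. miR1511b and miR2199 were not alone in this pattern. miR1510, miR4415 and the strand miR167b-3p had 0 reads in both CK libraries. Under LP they had 9, 8 and 9 reads in shoots and 9, 5 and 10 in roots. In shoots their values were under the minimum of 10. Whether the pattern has a common source in these sequences was not tested. The miR1511 family had 10 shoot reads under CK, all from its other member, and 49 under LP, 47 of them miR1511b. No role is given here for miR1511 or miR2199.
miR1511b: aCCCAGGCtctgataccatga
miR2199: tGATACACtagcacgggtcac

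Of the 215 sequences, 173 were above 0 in both shoot libraries, 17 in CK alone, 12 in LP alone and 13 in neither. The most abundant of those in CK alone was miR395a with 28 reads and of those in LP alone miR1511b with 47. Sequences starting with A held 1.68% of the reads in CK and 0.801% in LP, although their 34 measured members had a median log2 ratio of 0.57, and sequences starting with T held 95.9% and 96.5%.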
